A study of Mus musculus with 2 samples.

Results

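The cells described here are CD4 T cells that carried transcripts of both Pdcd1 (the inhibitory receptor PD-1) and Cxcr5 (the chemokine receptor that leads cells into B cell follicles) but no detected transcript of Il21 (the cytokine IL-21). They were selected on measured unique molecular identifiers (UMIs, each standing for 1 captured transcript molecule). A cell needed 500 or more detected genes, at most 10% mitochondrial UMIs, at least 1 UMI of Cd3d, Cd3e or Cd3g, at least 1 of Cd4, Pdcd1 and Cxcr5, none of Cd8a, Cd8b1, Foxp3 and Il21, and no more than 2 of Dscam, Penk and Hapln1 together. Of 14350 barcodes in the series, 133 met these conditions, 121 from the DKO-severe mouse and 12 from the WT mouse. These cells are called the members below.

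The data are single-cell RNA sequencing of TCRβ+ cells pooled from spleen and from inguinal and cervical nodes, taken at 14 weeks of age. Both mice carried the Foxp3Cre allele, in which a YFP and Cre recombinase fusion is expressed from the Foxp3 locus. The DKO-severe mouse also carried flox/flox alleles of Tet2 and Tet3, which encode enzymes that oxidise 5-methylcytosine, and belonged to the severe group by its number of lymphoid cells, whereas the other mouse was Foxp3Cre WT. There was 1 mouse per genotype, so no difference between genotypes or between cell groups was tested. All 95% intervals below are exact, cover counting error only, and say nothing of the spread between animals. Those of summed levels and their ratios treat the UMIs of a group as independent, so they leave out the spread between cells too.

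T follicular helper (Tfh) cells are the CD4 T cells that enter B cell follicles and help B cells make high-affinity antibody. BCL6 directs their programme, with TOX2, ASCL2 and MAF among the factors that act with it, while BLIMP-1, ID2 and KLF2 oppose it. They help B cells through contacts such as ICOS and CD40 ligand and through cytokines, above all IL-21 and IL-4. The Foxp3-driven Cre is regarded as leaky, so deletion need not be limited to regulatory T cells.

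The members were set beside 4 other groups of cells from the same gate. Double-negative cells had no UMI of Pdcd1, Cxcr5 or Il21 (830 DKO-severe and 1477 WT cells). Cxcr5-only cells (100 and 117) and Pdcd1-only cells (235 and 79) had 1 of the 2 receptors and no Il21 UMI. Il21-positive cells had both receptors and at least 1 Il21 UMI (162 and 3). The DKO-severe members had a median of 8718 UMIs per cell, with a range of 2762 to 33572, against medians of 6836.5 in double-negative and 10448.5 in Il21-positive cells, so the groups differed in depth. The 2 matrices shared 0 barcodes, and in 0 gated cells did the hashtag of the other genotype lead. Reads of Tet2 and Tet3 do not check the deletion, since 3' reads may lie outside the floxed exons. In members, Tet2 stood at 63.9 CPM (counts scaled to a common total of 1e6 UMIs) in DKO-severe and Tet3 at 90.3, and for both genes the interval of the log2 ratio between the 2 mice included 0.

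Most members sat close to the limits of the selection. Of 121 DKO-severe members, 48 had 1 Pdcd1 UMI, 37 had 2 and 36 had 3 or more, with a highest value of 9. For Cxcr5, 63 had 1 UMI, 34 had 2 and 24 had 3 or more. The limit on Dscam, Penk and Hapln1 kept 97 cells with none of these UMIs, 15 with 1 and 9 with 2, and left out 66 cells, 4 of which had 3 UMIs. A further 18 DKO-severe cells met every condition other than the absence of Foxp3. Lack of a Foxp3 UMI in a member is absence at this depth, so members may hold cells whose Foxp3 was missed. Among Il21-positive cells, 61 of 162 had a single Il21 UMI, so absence of Il21 in a member is absence at this depth. When every cell was thinned at random to 3800 UMIs, 13 of the 40 cells that then met the conditions had an Il21 UMI in their full counts, and 97 of 160 Il21-positive cells kept one.

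Members made up 6.39% of the DKO-severe gate (121 of 1893 cells, interval 5.33 to 7.59) and 0.704% of the WT gate (12 of 1704, 0.364 to 1.23) in the counts as deposited. At 3800 UMIs per cell the shares were 2.54% (40 of 1576, 1.82 to 3.44) and 0.629% (8 of 1272, 0.272 to 1.24), with 494 DKO-severe and 711 WT cells left out as too shallow. The thinned shares count cells that met the conditions after thinning, and 23 of the 40 DKO-severe cells were members in the full counts. The DKO-severe share was the higher of the 2 at both depths, and its size depended on depth. The thinned DKO-severe share also varied with the random draw of UMIs. Another draw at 3800 UMIs gave 3.42% (54 of 1580), and thinning to a lower depth gave 3.00% (45 of 1498). Both values lay above 2.54% but within its interval. The same receptor condition was counted in T cells with Cd8a or Cd8b1 UMIs and no Cd4 UMI, a type that should lack this programme. After thinning it was met by 0.415% (7 of 1685, 0.167 to 0.854) in DKO-severe and 0.0637% (2 of 3142, 0.00771 to 0.230) in WT. Each share of members lay above the Cd8 level of the same mouse, with no overlap of intervals. The interval of the WT members included the DKO-severe Cd8 level. With 2 or more Pdcd1 UMIs required, the thinned DKO-severe share was 0.698%.

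The label was checked on Bcl6, Tox2 and Icos, the 3 fixed markers that the selection did not use. In DKO-severe members, Tox2 was detected in 88 of 121 cells (0 to 20 UMIs, median 1), Bcl6 in 76 (0 to 9, median 1) and Icos in 107 (0 to 20, median 4). At an equal 3800 UMIs, Tox2 was seen in 44.0% of members, 10.8% of double-negative cells and 1.48% of Cd8-bearing cells, against 72.4%, 15.5% and 2.89% in the same cells unthinned. Bcl6 was seen in 42.2%, 22.4% and 13.5%, against 63.8%, 34.1% and 26.1% unthinned. Icos was seen in 76.7%, 46.3% and 17.8%, against 90.5%, 61.3% and 32.8% unthinned. Median depths before thinning were 8798, 7049 and 9579 UMIs in these 3 groups. All 3 markers were therefore detected more often in members than in double-negative or Cd8-bearing cells.

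Across the transcriptome, UMIs were summed over the cells of a group and scaled to CPM. Of 6360 genes with a mean of 20 CPM or more over the 2 groups, 269 (4.23%) were at least 2-fold higher and 149 (2.34%) at least 2-fold lower in DKO-severe members than in double-negative cells, and the median log2 ratio over all these genes was 0.11. Leaving immunoglobulin, haemoglobin, mitochondrial and ribosomal protein genes out of the totals put this median at 0.0031 and the 2 counts at 253 and 252. Of the 269 genes, 14 were seen in 12 or fewer members and 39 had 20% or more of their member UMIs in a single cell. Ratios in the next paragraphs are log2 ratios of CPM, members over double-negative cells of the DKO-severe mouse, with their intervals.

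**Figure D1:**
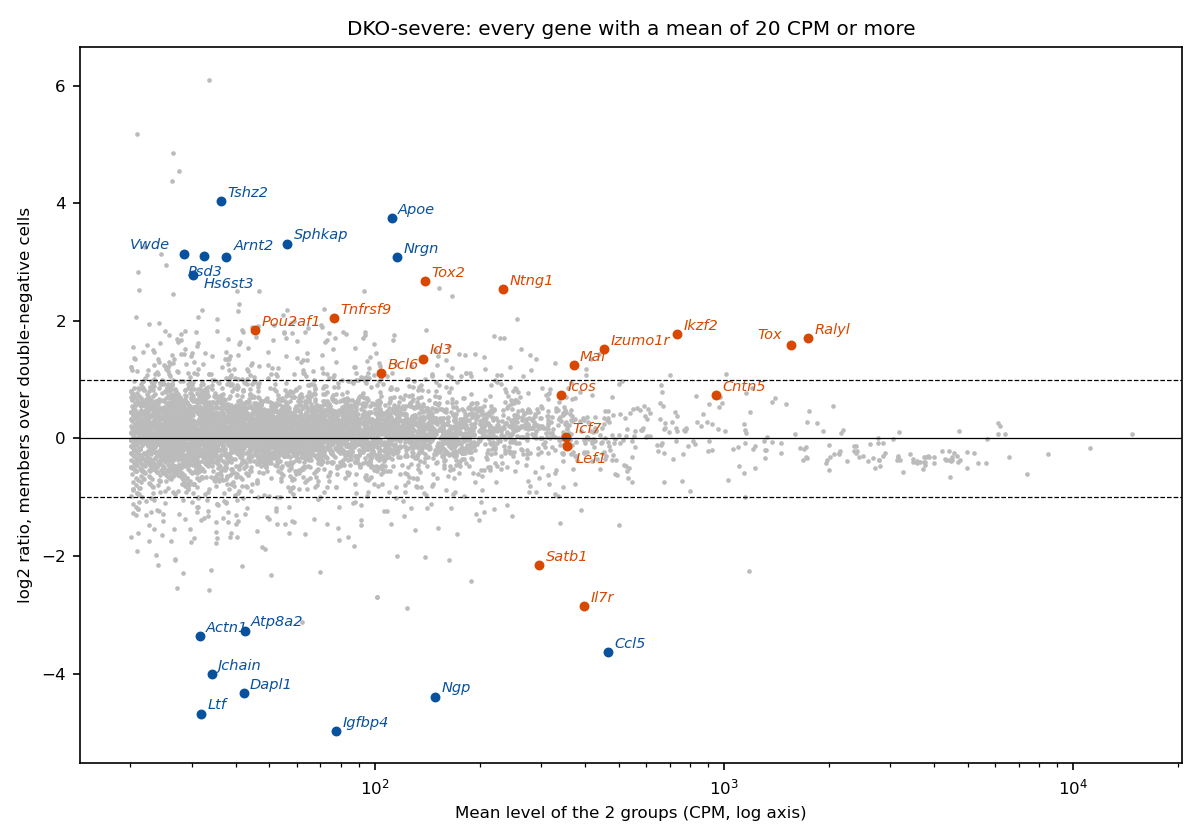
Each point is 1 of the 6360 genes with a mean of 20 CPM or more in DKO-severe members and double-negative cells, placed by that mean (log axis) and by the log2 ratio of members over double-negative cells, with dashed lines at a 2-fold difference. Blue names are the 8 highest and 8 lowest genes with 100 or more UMIs, orange names are genes of the text, and the 5 unnamed points above Tshz2 had fewer than 100 UMIs.

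Transcription factors of the Tfh programme were higher in members as a group. Of 15 listed factors, 14 reached 20 CPM, 6 of these were at least 2-fold higher and 0 at least 2-fold lower, and their median ratio was 0.70. Tox2, which opens chromatin at Tfh loci, stood at 241 CPM in members and 37.8 in double-negative cells (ratio 2.68, interval 2.42 to 2.93). Its relative Tox, also known from exhausted T cells, stood at 2336 against 777 CPM (1.59, 1.52 to 1.66) and was detected in 120 of 121 members. Bcl6, the master regulator, stood at 143 against 66.0 CPM (1.11, 0.85 to 1.37). Maf, which drives Il21 and Il4 transcription, stood at 523 against 221 CPM (1.25, 1.11 to 1.38). Pou2af1, a coactivator of octamer-binding factors, stood at 71.1 against 19.8 CPM (1.85, 1.44 to 2.25), and Id3, an inhibitor of E proteins, at 198 against 77.3 CPM (1.36, 1.13 to 1.58).

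Ascl2, an early inducer of Cxcr5, had 25 UMIs in members and 6 in double-negative cells (19.98 against 0.96 CPM, ratio 4.37, 3.05 to 5.95) and fell below the mean of 20 CPM. After thinning it was seen in 6.90% of members, 0.256% of double-negative and 0.0590% of Cd8-bearing cells (13.8%, 0.641% and 0.0590% of the same cells unthinned). Batf (0.61), Irf4 (0.68) and Nfatc1 (0.71), which act downstream of T cell receptor signals, had ratios under 2-fold. Tcf7 and Lef1, shared by naive cells and Tfh cells, had ratios of 0.02 (-0.13 to 0.17) and -0.13 (-0.28 to 0.02), and both intervals included 0. Stat3, whose gene overlaps Stat5a, had a ratio of -0.13 (-0.38 to 0.10).

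The genes named by the study as Tfh-related make up a second list. All but Icos were named by the study from bulk RNA sequencing of CD4 T cells from the same genotypes. Icos was named by the study from these single-cell data, which the study also used for Bcl6, Cxcr5, Pdcd1, Tox2, Maf and Batf. This list was thus drawn up with its direction between genotypes known, and in part from these same data. Its ratios are therefore no independent check of the members. Beside the selection genes, 7 of its members reached 20 CPM, 4 were at least 2-fold higher and 0 at least 2-fold lower, with a median ratio of 1.11. Il4, the other B cell helper cytokine, had 23 UMIs in the 121 members (18.4 against 14.1 CPM, ratio 0.38, -0.35 to 1.05) and was thus near the detection limit. Klrb1c, known from natural killer cells, stood at 55.1 against 19.9 CPM (1.47, 1.02 to 1.90).

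Factors that oppose the Tfh programme were mostly lower. Of 11 measured factors, 10 had ratios below 0 and 1 was at least 2-fold lower, with a median of -0.45. Id2, an inhibitor of E proteins in effector cells, stood at 122 against 290 CPM (-1.25, -1.50 to -1.01). Bach2, a repressor that holds T cells in a resting state, had a ratio of -0.98 (-1.16 to -0.80), and Klf2, which maintains lymphoid egress, -0.62 (-0.76 to -0.49). Prdm1, which encodes BLIMP-1, had 2 UMIs in all members and 42 in double-negative cells, under the level used for ranking.

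**Figure D2:**
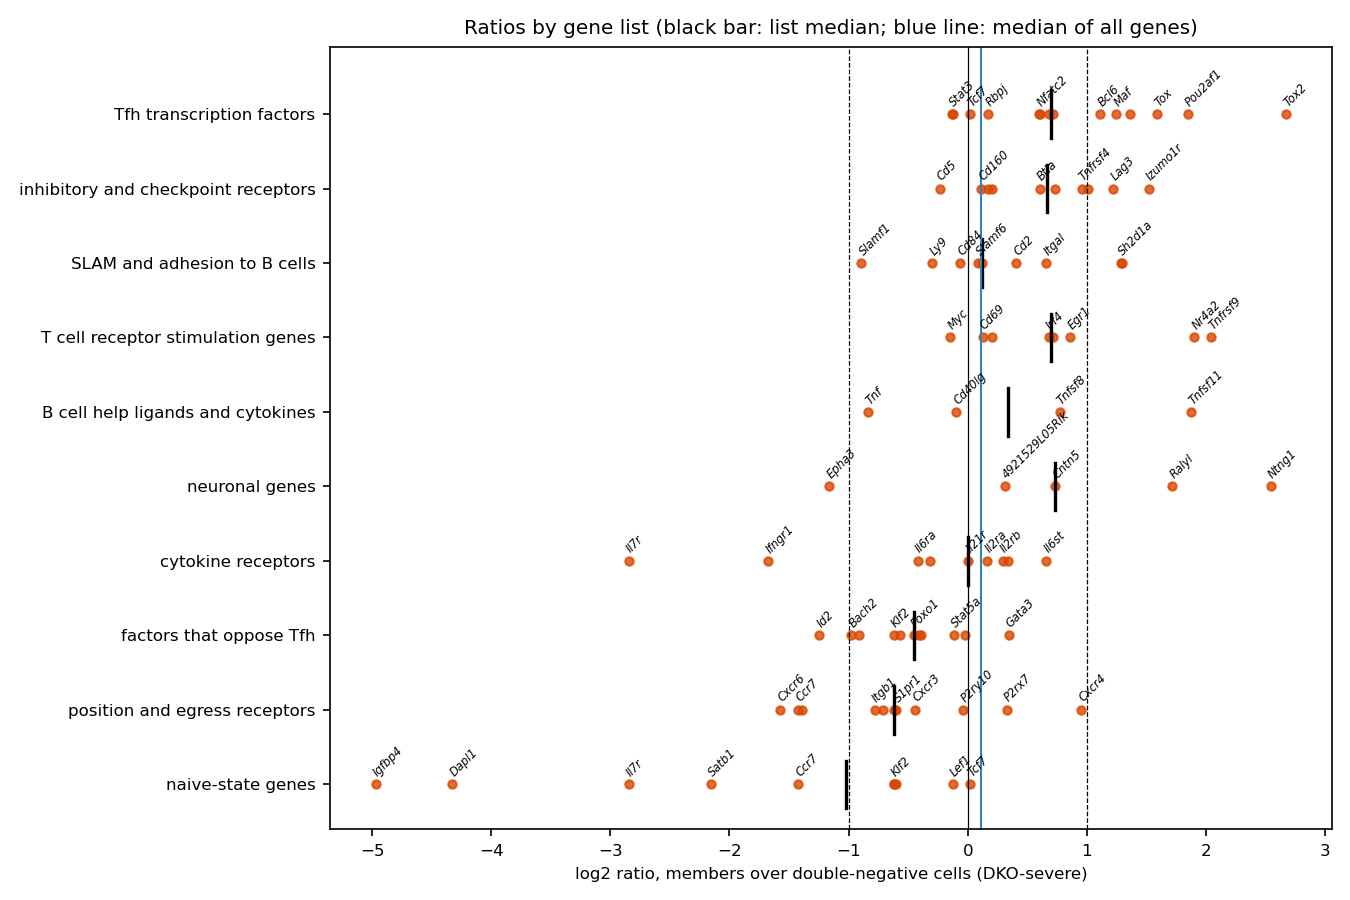
Each point is a gene of 1 list with a mean of 20 CPM or more, placed by its log2 ratio of DKO-severe members over double-negative cells, with names left off where they would overlap. Black bars are list medians, from 0.70 for the Tfh transcription factors to -1.02 for the naive-state genes, the blue line is the median of all genes at 0.11, and dashed lines mark 2-fold.

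Genes for contact with B cells and for help to them differed among themselves. Sh2d1a, which encodes the SLAM adaptor SAP needed for stable T and B cell contacts, stood at 467 against 192 CPM (1.28, 1.14 to 1.43), with the caveat that the gene overlaps Tenm1 on the other strand. Icos, the costimulator that keeps Tfh cells in place, stood at 428 against 256 CPM (0.74, 0.60 to 0.88). The SLAM family receptor Slamf6 had a ratio of 0.09 (-0.06 to 0.24), and the SLAM and adhesion list as a whole had 2 of 9 genes at least 2-fold higher, 0 at least 2-fold lower and a median of 0.12. Cd40lg, the main contact signal to B cells, stood at 106 CPM in members and 114 in double-negative cells (-0.10, -0.38 to 0.17), and after thinning it was detected in 31.0% and 32.8% of cells (58.6% and 45.9% unthinned). Of the TNF family ligands, Tnfsf11 (RANKL) had a ratio of 1.88 (1.53 to 2.22) and Tnfsf8 (CD30 ligand) 0.77 (0.62 to 0.92). Of the 4 measured ligands and cytokines, 1 was at least 2-fold higher and 0 at least 2-fold lower, with a median of 0.34.

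Inhibitory and costimulatory receptors were mostly higher. Of 10 measured receptors, 3 were at least 2-fold higher and 0 at least 2-fold lower, with a median of 0.67. Izumo1r, which encodes the folate receptor FR4 of anergic, regulatory and follicular cells, stood at 674 against 235 CPM (1.52, 1.40 to 1.64) and was detected in 113 of 121 members (0 to 28 UMIs, median 6). Lag3 had a ratio of 1.22 (0.94 to 1.50), Cd200 1.01 (0.77 to 1.25), Ctla4 0.73 (0.56 to 0.90) and Btla 0.60 (0.43 to 0.77). Tigit, below 20 CPM on average, had 38 UMIs in members and 52 in the far more numerous double-negative cells (ratio 1.86, 1.22 to 2.49).

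Of 8 measured genes of T cell receptor stimulation, which include Irf4 and Nfatc1 from the factor list, 2 were at least 2-fold higher and 0 at least 2-fold lower (median 0.70). Tnfrsf9, which encodes the costimulator 4-1BB and overlaps Camta1, stood at 123 against 29.9 CPM (2.04, 1.72 to 2.36). Nr4a2, an immediate response factor, stood at 70.3 against 18.8 CPM (1.90, 1.49 to 2.31), but only 27 of 121 members had a UMI and 5 of them held 63.6% of the total. The highest Nr4a2 values, 24, 15, 8 and 5 UMIs, were all in members with an Eomes UMI, a small set described below. Egr1 (0.86) and Cd69 (0.13) stayed under 2-fold.

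Ikzf2, which encodes the factor Helios of regulatory and chronically stimulated T cells, stood at 1141 CPM in members and 334 in double-negative cells (1.77, 1.67 to 1.87). It was detected in 102 of 121 members (0 to 102 UMIs, median 4), and 37 members, or 30.6% (22.5 to 39.6), had 10 or more UMIs against 6.75% of double-negative cells. Among other genes of regulatory T cells, Nrp1 had a ratio of -0.18 (-0.48 to 0.11) and Il2ra 0.16 (-0.24 to 0.55). Over the 6 measured genes of that list, 2 were at least 2-fold higher, Ikzf2 and Izumo1r, and 0 at least 2-fold lower, with a median of 0.47.

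Naive-state genes were mostly lower in members. Of 10 such genes, 9 had ratios below 0, 5 were at least 2-fold lower and 0 at least 2-fold higher, with a median of -1.02. Il7r, the receptor for the survival cytokine IL-7, stood at 97.5 CPM in members and 701 in double-negative cells (-2.85, -3.12 to -2.59). After thinning it was detected in 19.8% of members, 68.8% of double-negative cells and 73.6% of Cd8-bearing cells (25.9%, 77.2% and 84.5% unthinned). Satb1, a chromatin organiser of resting T cells, stood at 109 against 485 CPM (-2.16, -2.42 to -1.91). Igfbp4, a binding protein of insulin-like growth factors found in naive CD4 T cells, had 6 UMIs in members and 936 in double-negative cells (-4.97, -6.42 to -3.84), and Dapl1 had 5 and 500 (-4.33, -5.96 to -3.10).

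Among 11 receptors for position and egress, 3 were at least 2-fold lower and 0 at least 2-fold higher, 9 had ratios below 0 and 2 above, and the median was -0.62. Those at least 2-fold lower were Ccr7, which holds cells in the T cell zone (-1.42, -1.93 to -0.96), Selplg, the P-selectin ligand that Tfh cells lose (-1.39, -1.79 to -1.02), and Cxcr6 (-1.57, -2.17 to -1.03), whose gene overlaps Fyco1. S1pr2, which confines cells to germinal centres, had 21 UMIs in members and 35 in double-negative cells (ratio 1.58, 0.72 to 2.40). Ccl5, a chemokine of effector and memory T cells, stood at 69.5 against 864 CPM (-3.64, -3.96 to -3.33), and Ifngr1, the interferon-γ receptor, at 39.95 against 128 CPM (-1.68, -2.12 to -1.26). Ifngr1 and Il7r were the 2 of 9 measured cytokine receptors at least 2-fold lower, 0 were at least 2-fold higher, and that list had a median of 0.0051.

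The remaining lists had few measured genes. Of 3 Th1 genes, 1 was at least 2-fold lower and 0 higher (median -0.50), and the 1 measured Th2 gene, Gata3, had a ratio of 0.34 (0.03 to 0.64). No Th17 gene, no gene of a list around Mal and Myl1 and no red cell marker reached 20 CPM. Of 7 cell cycle genes, 2 were at least 2-fold higher and 0 lower (median 0.44), of 3 cyclin-dependent kinase inhibitors 1 was higher and 0 lower (0.09), and of 4 TET and DNA methylation genes 0 differed by 2-fold (0.26).

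Each receptor alone went with part of the pattern. Lack of a receptor UMI is absence at this depth, since 63 of 121 members had 1 Cxcr5 UMI and 48 had 1 Pdcd1 UMI. The single-receptor groups may thus hold cells whose other receptor was missed. Tox2 stood at 37.8 CPM in double-negative, 125 in Cxcr5-only, 149 in Pdcd1-only, 241 in member and 278 in Il21-positive cells of the DKO-severe mouse, with overlapping intervals between the 2 single-receptor groups and between members and Il21-positive cells, and none between other neighbours. Il7r ran the other way, from 701 through 374, 236 and 97.5 to 72.6 CPM. Bcl6 stood at 66.0, 97.3, 77.5, 143 and 180 CPM in the same order, so that Pdcd1-only cells had less Bcl6 than members (ratio of members over Pdcd1-only cells 0.88, 0.57 to 1.20). Maf, Izumo1r, Ralyl and Icos were close between Pdcd1-only cells and members, with member ratios of 0.03 (-0.12 to 0.17), 0.16 (0.04 to 0.29), 0.09 (0.03 to 0.15) and -0.20 (-0.35 to -0.04). Summed Ccl5 stood at 1285 CPM in Pdcd1-only cells against 69.5 in members, but 5 of the 235 Pdcd1-only cells held 56.7% of its UMIs. The median cell had 0 Ccl5 UMIs in both groups, and 41.3% of Pdcd1-only cells and 28.9% of members had any.

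**Figure D3:**
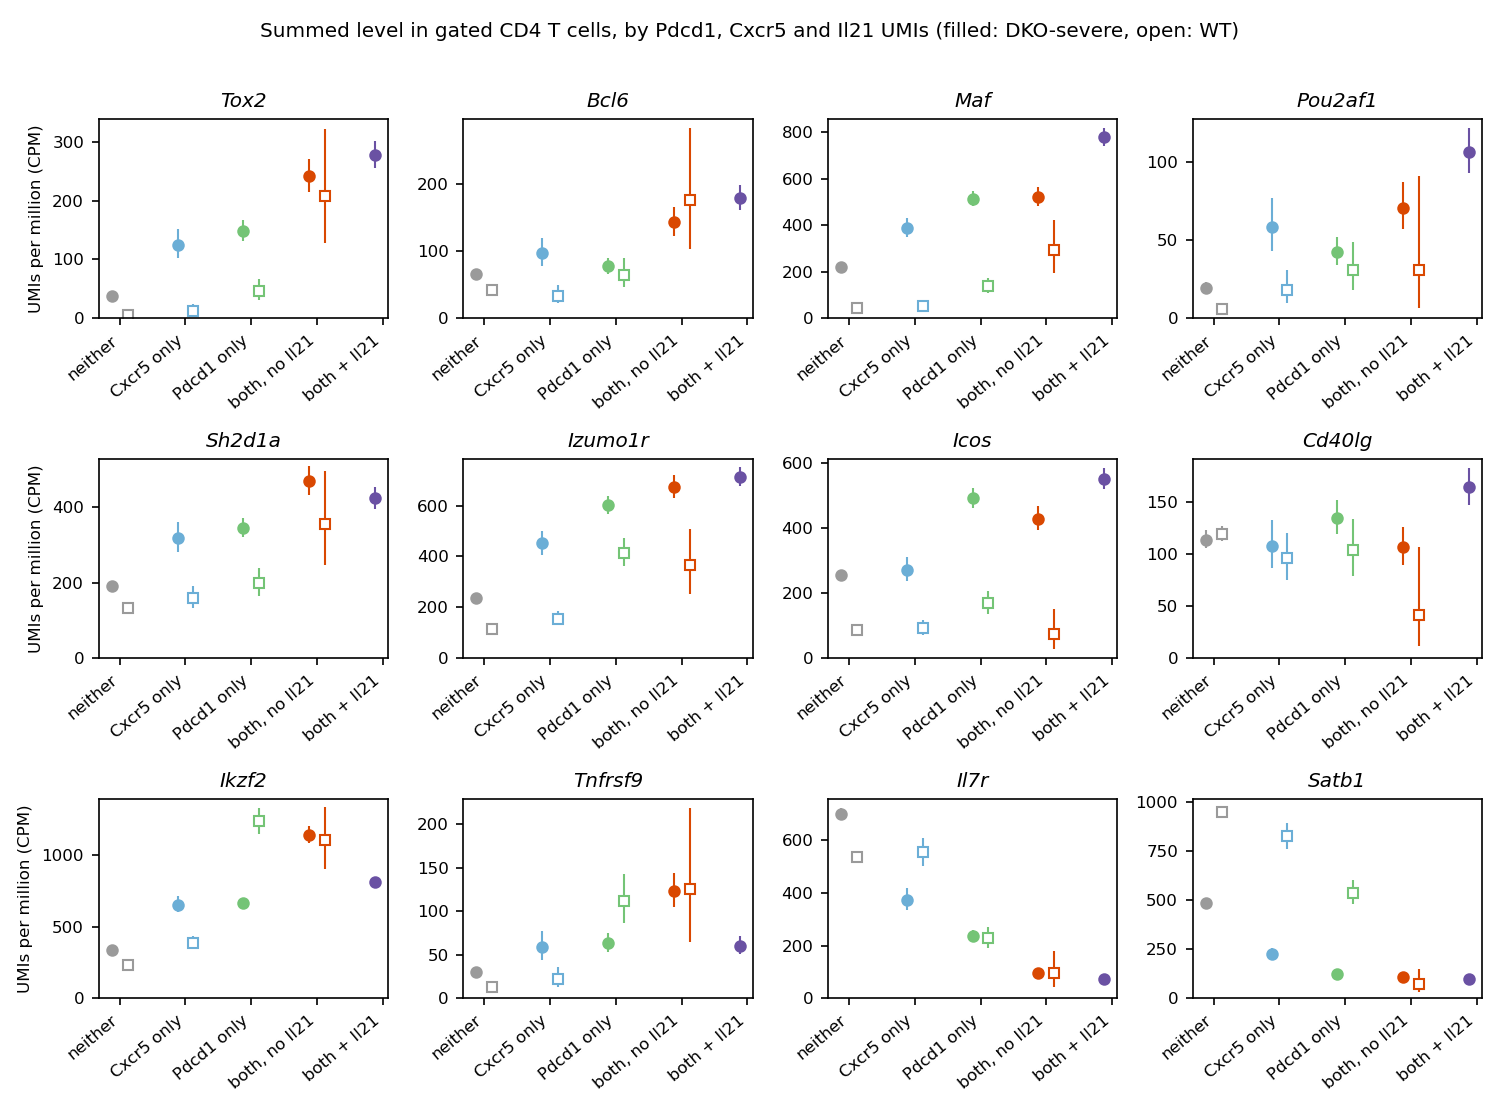
Each panel is 1 gene, with the summed level in CPM on the vertical axis and cells ordered by their Pdcd1, Cxcr5 and Il21 UMIs, filled circles for DKO-severe, open squares for WT, and bars for exact 95% Poisson intervals (the 3 WT Il21-positive cells are not drawn). Tox2 and Bcl6 were higher and Il7r and Satb1 lower in cells with both receptors than in cells with neither, in both mice, while the summed Icos level was higher in cells with both receptors in the DKO-severe mouse and rested on 7 UMIs in the WT members.

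Genes better known from neurons were carried by many members. Ralyl, an RNA-binding protein gene on chromosome 3 (mm10, 13471655 to 14182287, + strand), stood at 2682 CPM in members and 818 in double-negative cells (1.71, 1.65 to 1.78). Its UMIs ranged from 0 to 242 per member with a median of 13, and 68 of 121 members (56.2%, 46.9 to 65.2) had 10 or more, against 16.1% of double-negative, 42% of Cxcr5-only, 50.6% of Pdcd1-only and 93.8% of Il21-positive cells. In contrast, 26.4% of members but 2.47% of Il21-positive cells had no Ralyl UMI at all. Members thus held cells with high Ralyl and cells without it side by side.

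Ntng1, which encodes the adhesion protein netrin-G1, stood at 399 against 68.5 CPM (2.54, 2.35 to 2.73). Cntn5, an axonal adhesion gene on chromosome 9 (mm10, 9660891 to 10904775, - strand), stood at 1190 against 714 CPM (0.74, 0.65 to 0.82). Of its UMIs in members, 23.4% came from 1 cell with 348 UMIs, and 22 members (18.2%, 11.8 to 26.2) had 10 or more. That share was 25% in Cxcr5-only, 26.0% in Pdcd1-only and 48.1% in Il21-positive cells, so members had the lowest share among the receptor-bearing groups, although its interval included the single-receptor values. Epha3 was lower in members (-1.16, -1.64 to -0.71). Of the 5 genes of this list, 2 were at least 2-fold higher and 1 at least 2-fold lower, with a median of 0.74.

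The comparison was repeated among cells with 10 or more Cntn5 UMIs (22 members, 68 double-negative cells) and among the rest (99 and 762). Among the cells with fewer Cntn5 UMIs the median of the Tfh factors was 0.88, with Tox2 at 3.00 and Ikzf2 at 1.97. Among the cells with 10 or more it was 0.014, with Bcl6 at 1.79, Tox2 at 0.84, Ikzf2 at 0.35, Izumo1r at 0.16 and Il7r at -2.44. In these cells Bcl6 and Il7r still differed by more than 2-fold, whereas the other genes given here did not. Several genes that were higher in members over all cells had ratios below 0 in these cells, with Maf at -0.088, Id3 at -0.26, Lag3 at -0.75, Cd200 at -0.42, Tnfrsf9 at -0.055 and Ralyl at -0.044. Where double-negative cells with an Il21 UMI (167 of 997) were let back in, a choice made after the values were seen, the factor median was 0.42 and 161 genes were at least 2-fold higher in members.

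The highest ratios by rank came from genes that few members carried. Tshz2, a zinc finger homeobox gene, had 86 UMIs in members and 26 in double-negative cells (4.04, 3.39 to 4.73), but 15 of 121 members had a UMI and 1 cell held 46.5% of them. Apoe, which encodes a lipid carrier, stood at 209 against 15.6 CPM (3.74, 3.40 to 4.09), was detected in 23 members, and had 43.7% of its UMIs in 1 cell. Nrgn, which encodes the calmodulin-binding protein neurogranin, was broader, with a UMI in 48 members and 208 against 24.6 CPM (3.08, 2.79 to 3.38). Even so, 5 members held 53.1% of the Nrgn UMIs. Of these 5, those with 36, 26 and 21 Nrgn UMIs also had an Eomes UMI, and those with 30 and 25 had none. Sphkap (3.31), Vwde (3.14), Psd3 (3.11), Arnt2 (3.09) and Hs6st3 (2.77) completed the 8 highest, each at no more than 102 CPM in members. Summed Apoe was of similar size in the other receptor-bearing groups, at 268 CPM in Cxcr5-only, 181 in Pdcd1-only and 185 in Il21-positive cells. These sums also rested on few cells, since 5 cells held 91.7%, 94.5% and 59.1% of the Apoe UMIs in these groups. Any Apoe UMI was seen in 14%, 7.66% and 20.4% of their cells, against 19.0% of members.

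The 8 lowest were Igfbp4, Ltf (-4.68), Ngp (-4.39), Dapl1, Jchain (-4.01), Ccl5, Actn1 (-3.36) and Atp8a2 (-3.27). Ltf and Ngp encode granule proteins of neutrophils and Jchain the joining chain of plasma cells, and 5 of 830 double-negative cells held 95.9% of the summed granulocyte marker UMIs. Actn1, an actin crosslinker, and Atp8a2, a phospholipid flippase whose gene overlaps Nupl1, are no markers of these other cells.

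Markers of other cell types differed between the groups, and their part in the results was not tested. Summed B cell markers (13 genes, all 13 detected in both groups) stood at 908 CPM in members and 327 in double-negative cells. In members 5 cells held 66.5% of them, per-cell sums ran from 0 to 20116 CPM, and the median cell had 59.8 CPM against 0. Summed monocyte or macrophage markers stood at 579 against 325 CPM, granulocyte markers at 1548 against 3301, plasma cell markers at 772 against 1216, innate-like or natural killer markers at 254 against 203, CD8 T cell markers at 82.3 against 57.9 and red cell markers at 18.4 against 541 CPM. The sums and the typical cell did not always point the same way, since the median member had 505 CPM of plasma cell markers and 49.1 of granulocyte markers against 270 and 0 in the median double-negative cell. Among double-negative cells, 5 cells held 69.0% of the plasma cell, 95.9% of the granulocyte and 96.2% of the red cell marker UMIs. Defining genes at 0 in members were Tnfrsf17 and Igha of the plasma cell list and Ncr1 of the natural killer list, beside Cd8a and Cd8b1, which the selection excluded.

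Within the B cell list, Cd79a UMIs came from 4 members, whereas Cd74, Pax5 and H2-Aa were more widely spread, with Cd74 in 35 members and Pax5 in 27. Cd74, the invariant chain, stood at 411 against 100 CPM (2.04, 1.87 to 2.21) and Pax5, the B cell identity factor, at 36.0 against 9.32 CPM (1.95, 1.35 to 2.53). A UMI of at least 1 gene of a short set of B cell and myeloid markers, which includes Cd79a, Lyz2 and S100a8, was present in 64 of 121 members and 339 of 830 double-negative cells. Without all such cells, 57 members remained, the factor median was 1.01, Tox2 stood at 2.83 and Bcl6 at 1.46, and 246 genes were at least 2-fold lower. Ngp then had a ratio of 0.76 and Jchain of -0.52, so neither kept its place among the low genes, while Apoe stood at 4.32 and Cd74 at 1.83.

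The automatic doublet caller marked 0 cells in either matrix and so has not worked. Removing the 6% of cells with the highest doublet scores took out 7 members and left a factor median of 0.66.

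The Il21-positive cells, which met the same receptor condition, were compared with the members in the same way. Of 6432 genes, 85 (1.32%) were at least 2-fold higher and 48 (0.746%) at least 2-fold lower in Il21-positive cells than in members, and the median log2 ratio over all was -0.02. None of the 15 listed Tfh factors differed by 2-fold (0 higher, 0 lower, median 0.22). Tox2 had a ratio of Il21-positive over member cells of 0.21 (0.00 to 0.41), Bcl6 0.33 (0.07 to 0.60), Id3 -0.01 (-0.24 to 0.23) and Maf 0.57 (0.44 to 0.71). Icos was at 0.36 (0.21 to 0.51) and Izumo1r at 0.08 (-0.04 to 0.20).

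Among B cell help ligands and cytokines and among the neuronal genes, 4 of 5 measured genes in each list had ratios above 0 in Il21-positive cells over members. Tnfsf8 stood at 849 CPM against 400 in members (1.09, 0.94 to 1.23) and Cd40lg at 164 against 106 (0.62, 0.33 to 0.92). Of the 5 measured ligands and cytokines, 1 was at least 2-fold higher and 0 at least 2-fold lower, with a median of 0.62. Cd200 (0.94), Btla (0.80) and Nfatc1 (0.73) were higher by less than 2-fold. Ralyl stood at 4434 against 2682 CPM (0.73, 0.67 to 0.78), Ntng1 at 813 against 399 (1.03, 0.88 to 1.17), Cntn5 at 2433 against 1190 (1.03, 0.95 to 1.12) and Epha3 at 75.5 against 35.2 (1.10, 0.61 to 1.62), whereas 4921529L05Rik had a ratio of -0.07 (-0.51 to 0.38), giving 3 of 5 genes at least 2-fold higher and a list median of 1.03. Nrp1, a semaphorin receptor, had a ratio of 1.14 (0.84 to 1.46).

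Several genes were lower in Il21-positive cells than in members. Gpr183, the oxysterol receptor that draws cells to the outer follicle and overlaps Ubac2, stood at 72.7 CPM in members and 22.9 in Il21-positive cells (-1.67, -2.21 to -1.14). Its level in members remained below the double-negative value of 119 CPM. Tnfrsf9 (-1.03, -1.38 to -0.68), Il2ra (-1.11, -1.67 to -0.56) and Ikzf2 (-0.49, -0.60 to -0.39) were lower in Il21-positive cells as well. The list of position and egress receptors had 2 of 11 genes at least 2-fold lower and 0 higher, with a median of -0.61. Among the genes picked by rank, Ltf (5.70), Ngp (5.26), Spp1 (3.93), Camp (3.55) and Lcn2 (3.33) were highest and Retnlg (-4.70), Ly6c2 (-3.12), Tshz2 (-2.75), Nkg7 (-1.86) and Gpr183 lowest. In the Il21-positive cells 5 of 162 held 98.7% of the granulocyte marker UMIs, and without cells bearing B cell or myeloid markers Ngp stood at -0.047 and Camp at 0.37.

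Members were not uniform. Eomes, a T-box factor of cytotoxic and memory T cells, had 55 UMIs in members, all in 6 cells, a set picked out after the values were seen. These 6 cells held 83.7% of the Slamf7 UMIs, 66.7% of those of Neto1 and 51.2% of those of Nkg7, a granule protein of cytotoxic cells. Tox2 was detected in 1 of the 6 (31.2 against 259 CPM in the other 115 members), and Ikzf2 stood at 135 against 1225 CPM. All 6 carried Ralyl, at 5465 against 2451 CPM. The ratio of Eomes over double-negative cells (3.14, 2.48 to 3.83) thus describes 4.96% of the members.

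**Figure D4:**
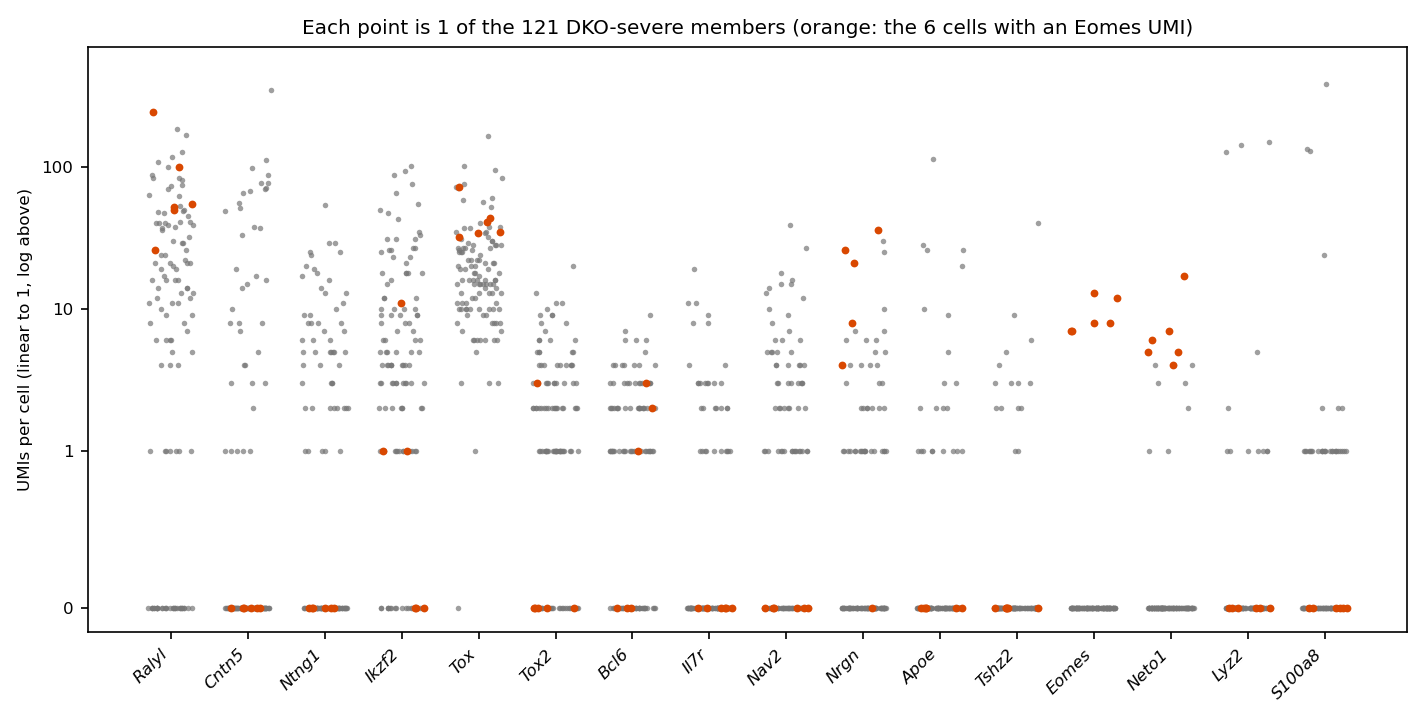
Each point is 1 of the 121 DKO-severe members, with the UMIs of 16 genes on the vertical axis (linear up to 1, log above) and the 6 cells with an Eomes UMI in orange. Ralyl and Tox were spread over most cells, Lyz2 and S100a8 came from a few cells, and the 6 orange cells had Ralyl and Neto1 but little Tox2 or Ikzf2.

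The share of cells in division was counted in each group. Counting cells with 5 or more UMIs over Mki67, Top2a, Cdk1, Ccnb1, Ccnb2 and Ccna2 in the full counts, 8 of 121 members (6.61%, 2.90 to 12.6) qualified, against 3.86% (2.65 to 5.40) of double-negative, 3% (0.623 to 8.52) of Cxcr5-only, 8.51% (5.28 to 12.8) of Pdcd1-only and 11.1% (6.72 to 17.0) of Il21-positive cells. The interval of the members overlapped the other 4, and the groups differed in depth.

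T cell receptor β variable (Trbv) transcripts gave a view of the repertoire that the selection did not use. A single leading Trbv segment could be assigned in 40 of 121 members and 237 of 830 double-negative cells. Trbv12-2 led in 17 of the 40 members (42.5%, 27.0 to 59.1), against 18.1% (13.5 to 23.7) of double-negative and 28.8% (18.8 to 40.6) of Il21-positive cells. Trbv19 led in 25% (12.7 to 41.2) of members and 18.6% of double-negative cells. Trbv13-2 led in 12.5% (4.19 to 26.8) of members but in 39.2% (28.0 to 51.2) of Pdcd1-only and 37.0% (26.0 to 49.1) of Il21-positive cells, so that Trbv12-2 was the most frequent segment in members and Trbv13-2 in Il21-positive cells, although the intervals of these 2 groups overlapped for both segments. Among Il21-positive cells Trbv13-2 led in 21 of 41 assigned cells with 10 or more Cntn5 UMIs but in 6 of 32 with fewer, where Trbv12-2 and Trbv19 led in 8 each.

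As a measure of evenness, the inverse of the sum of squared segment shares gives an effective number of segments, which was 3.77 in members, 4.07 in Il21-positive, 4.26 in Pdcd1-only, 6.84 in Cxcr5-only (29 assigned cells) and 8.0 in double-negative cells of the DKO-severe mouse, and 13.7 in WT double-negative cells. With 121 double-negative cells matched to the members on total UMIs it was 7.22, from 38 assigned cells. Among members with 10 or more Cntn5 UMIs Trbv12-2 led in 6 of 9 assigned cells, and among the others in 11 of 31. A segment is shared by many receptors, so these shares are no count of clones, and the number falls with the number of assigned cells.

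**Figure D5:**
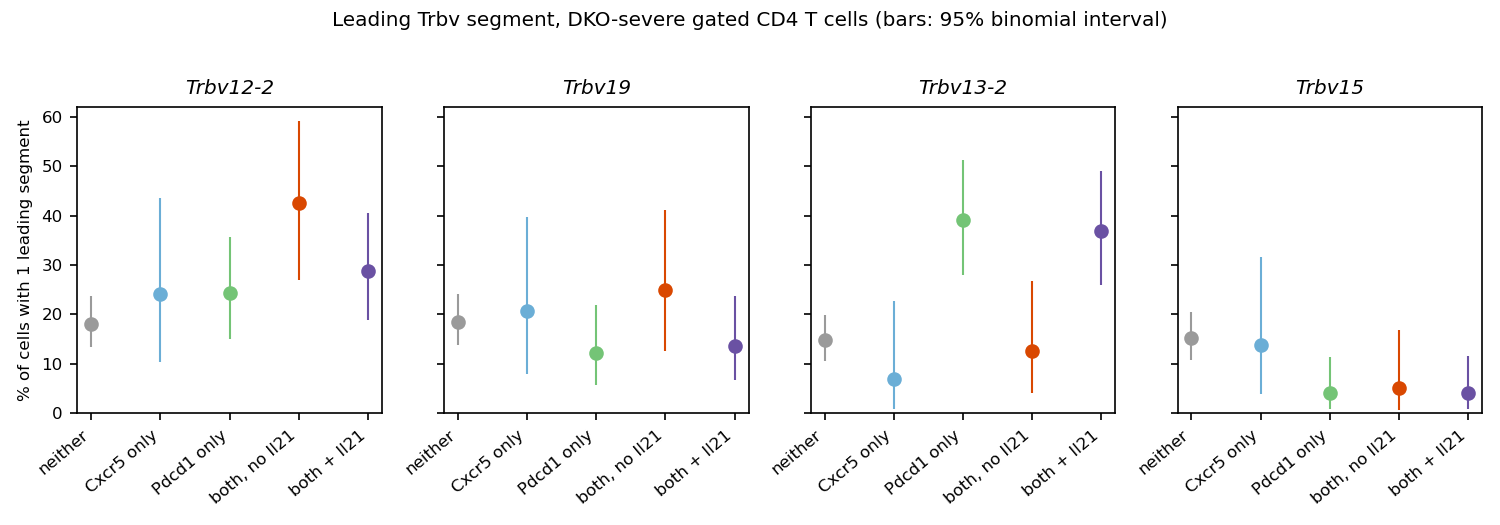
The vertical axis is the percentage of DKO-severe cells with an assigned segment in which the named Trbv segment led, for cells ordered by Pdcd1, Cxcr5 and Il21 UMIs, with exact 95% binomial intervals as bars. Trbv12-2 led in 42.5% of the 40 assigned members, and Trbv13-2 led in 12.5% of members but in 37.0% of the 73 assigned Il21-positive cells.

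The 12 WT members, with 95896 UMIs in all, give a small comparison. Over WT double-negative cells, WT members had log2 ratios of 5.25 (4.42 to 6.04) for Tox2, 2.07 (1.28 to 2.77) for Bcl6, 2.25 (1.95 to 2.53) for Ikzf2, -2.51 (-3.64 to -1.59) for Il7r and -3.70 (-5.01 to -2.66) for Satb1. Levels were near those of DKO-severe members for Tox2 (209 against 241 CPM), Bcl6 (177 against 143), Ikzf2 (1105 against 1141) and Il7r (93.9 against 97.5). These 5 genes thus differed from double-negative cells in the same direction in both mice.

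Other genes differed between the members of the 2 mice. Icos had 7 UMIs in WT members (73.0 CPM) against 428 CPM in DKO-severe (DKO-severe over WT 2.55, 1.50 to 3.87). At equal depth Icos was seen in 36.4% of WT members (4 of 11, 10.9 to 69.2) and 20.5% of WT double-negative cells, against 54.5% and 28.8% unthinned. Ralyl and Ntng1 had 0 UMIs in WT members and Cntn5 had 2. With 0 counted as 3 UMIs over the group, the log2 ratios of DKO-severe over WT members were 6.42 for Ralyl and 3.67 for Ntng1. The lower interval limits, taken from the counts as they are, were 6.12 and 3.37. Maf (0.84, 0.30 to 1.44) and Tnfsf8 (1.09, 0.41 to 1.86) were higher in DKO-severe members, while Gpr183 (-2.24, -2.83 to -1.62), Bach2 (-1.50, -1.90 to -1.07) and Tnfrsf4, the costimulator OX40 (-1.05, -1.45 to -0.63), were lower. Genotype and mouse cannot be told apart in these values.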

How the data were processed

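TCRβ+ cells of 1 mouse per genotype were hashtagged and sequenced in 1 library made with the 10x Genomics 3' kit. The authors deposited 1 matrix of raw UMI counts per genotype, made with Cell Ranger 7.1.0 on mm10, with 32285 genes beside 2 hashtags in each, and the submitters' processing notes also name Seurat. Whether counting used strand is not given in the sources used here, so overlapping genes are uncertain. All 14350 barcodes were read (45294779 UMIs in WT, 69692053 in DKO-severe), and 7007 WT and 6765 DKO-severe cells passed the cell filter. Gated cells numbered 1704 and 1893. 0 columns of the matrices were left unused.

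The cells and gene lists were chosen with earlier results of these data known. UMIs were summed per group and scaled to CPM. Counts under 3 were set to 3 in a ratio. Intervals were Clopper-Pearson for shares, exact Poisson for CPM and exact conditional for ratios, at the 95% level. No test was run, because cells of 1 mouse are not replicates. Genes named were those of the lists, plus the 8 highest and 8 lowest against double-negative cells and the 5 highest and 5 lowest of Il21-positive cells over members, among genes with a mean of 20 CPM and 100 UMIs, leaving out immunoglobulin, haemoglobin, receptor segment and selection genes. Neto1 and Nav2 were added after their values were seen. Shares at equal depth were computed after thinning to 3800 UMIs per cell. Doublets were scored with Scrublet in scanpy 1.11.5. The ratio and its interval were tested on simulated data. Some genes are not reported here. Gene positions are GENCODE vM21. Python 3.11.15, numpy 2.4.6, scipy 1.17.1, pandas 2.3.3 and matplotlib 3.10.9 were used. Alternatives covered depth, gates, doublets, cells with markers of other types, weights, filters and scaling.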

Additional observations from a re-analysis of the deposited data

Results flagged for a closer look

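For 2 genes the difference between members and double-negative cells ran in opposite directions in the 2 mice, and with 1 mouse per genotype this difference was not tested. The log2 ratio of Nkg7, a granule protein gene of cytotoxic cells, was -0.50 (-0.75 to -0.27) in DKO-severe and 2.96 (2.42 to 3.46) in WT, where 35 Nkg7 UMIs were seen in the 12 members. The log2 ratio of Tnf, which encodes the cytokine TNF, was -0.84 (-1.53 to -0.21) in DKO-severe and 1.98 (0.83 to 2.93) in WT, where 9 Tnf UMIs were seen in the 12 members. How these WT UMIs were spread over the 12 cells is not given here, so few cells may hold them. In DKO-severe, 6 members with an Eomes UMI held 51.2% of the Nkg7 UMIs, and the WT members held 6 Eomes UMIs.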

How the results depend on the processing

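No paired analysis was possible because each genotype had 1 mouse. Of 2161 gene ratios under alternatives, 1677 moved by less than their interval, 471 moved beyond it and 13 changed sign, and of 210 list medians 164, 45 and 1 did. The causes were not tested. Counts of genes at least 2-fold apart depend on the choices most. For genes higher in members than in double-negative cells (269 as reported) they were 592 when thinned, 1322 with no CPM minimum, 138 at 50 CPM, 500 with 10 or more Cntn5 UMIs, and 161 with Il21-bearing double-negative cells included, which was chosen after seeing the data. For genes lower in members (149) they were 296 when thinned, 246 without cells bearing other markers, 252 without technical genes in the totals, 536 with no CPM minimum, 63 at 50 CPM and 347 with 10 or more Cntn5 UMIs. For genes higher in Il21-positive cells than in members (85) they were 475 when thinned, 138 with 2 or more Pdcd1 UMIs, 165 without cells bearing other markers, 551 with no CPM minimum, 34 at 50 CPM and 264 with 10 or more Cntn5 UMIs. For genes lower in Il21-positive cells (48) they were 81 when matched on UMIs, 618 when thinned, 115 with 2 or more Pdcd1 UMIs, 74 with no UMI of Dscam, Penk and Hapln1, 186 without cells bearing other markers, 78 with equal weight per cell, 28 with a pseudocount of 5 CPM, 77 without technical genes, 827 with no CPM minimum, 13 at 50 CPM, 338 with 10 or more Cntn5 UMIs and 96 with fewer. The median of the Tfh factors was 0.014 with 10 or more Cntn5 UMIs. There the median of the study's Tfh-related genes was -0.088, and the ratios of members over double-negative cells were -0.088 for Maf, -0.26 for Id3, -0.42 for Cd200, -0.75 for Lag3, 1.26 for Dapl1, -0.055 for Tnfrsf9, -0.044 for Ralyl, 0.43 for Ifngr1 and -0.64 for Sphkap, with Il21-positive over member ratios of -0.25 for Cntn5 and -0.45 for Lcn2. Without cells bearing other markers Ngp stood at 0.76 over double-negative cells and at -0.047 in Il21-positive cells over members. The share of members in the DKO-severe gate (2.54%) was 6.39% without thinning, 4.43% at 5000 UMIs and 0.698% with 2 or more Pdcd1 UMIs. It was 3.42% with another random draw at the same depth, which lay within its interval. The effective number of Trbv segments (3.77) was 1.85 when 2 or more UMIs were required, from 10 cells. Depth limits the reading of Il21, Ascl2, Il4 and Prdm1, which had few UMIs per cell, and 12 WT members limit the genotype comparison.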
